A study of Mus musculus with 4 samples.

Results

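The aquaporins are membrane channels for water, and some also pass glycerol. The vasopressin receptors carry the hormone signal that decides how much water the kidney keeps. The genes described here are 8 aquaporins (Aqp1, Aqp2, Aqp3, Aqp4, Aqp6, Aqp7, Aqp8 and Aqp11) and 2 vasopressin receptors (Avpr1a and Avpr2). They were taken by gene symbol from the platform annotation, which gives them 15 of the 39429 probes tested on the array. Aqp4, Aqp6, Aqp8, Aqp11 and Avpr2 have 2 probes each, called probe 1 (the brighter) and probe 2, and the other genes have 1.

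The RNA came from kidney tubule fragments of transgenic B6D2F2 mice in which the parvalbumin promoter drives eGFP, a reporter of the distal convoluted tubule (DCT). Low-diet mice ate 0.02% magnesium by weight and high-diet mice 0.48%, in both cases for 15 days, and all carried the reporter and were 6 to 8 weeks old at isolation. Tubule fragments with eGFP were sorted, 4000 were pooled for each RNA sample, and the RNA was amplified before labelling. A fragment can carry cells of neighbouring segments. Each of 4 arrays held the low-diet and the high-diet sample of littermates in 2 colours, and pairs are named by their sample numbers, L for low and H for high: L1/H1, L2/H3, L7/H7 and L8/H8. L1 and L7 carried Cy5, and L2 and L8 carried Cy3. The labels do not say how many mice gave a sample, so the pairs are taken as the replicates. The p-values rest on the spread between these 4 pairs that is left after a dye effect is fitted, combined with the spread typical of all probes.

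In the collecting duct, vasopressin binds the V2 receptor, which raises cyclic AMP through adenylate cyclase, and protein kinase A then drives vesicles with aquaporin 2 into the luminal membrane. Water leaves the principal cells of that segment through aquaporins 3 and 4 on the other side. Aquaporin 1 is the constitutive water channel of the proximal tubule and the descending thin limb, while the early DCT lets little water through. The V2 receptor is also made in the DCT and in the thick ascending limb, where it acts on salt transport rather than on water channels.

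Of 8 DCT markers, 8 were above background in both samples of all 4 arrays. So were 8 of 8 intercalated cell markers and 6 of 6 of the thick ascending limb. These counts therefore do not show how pure the sort was. Among the DCT markers, Slc12a3, the sodium chloride cotransporter of this segment, lay at percentile 95.6 of probe brightness, and Sall3 at 32.3. Of 8 markers of principal cells, 5 were above background throughout, and Hsd11b2, Fxyd4 and Elf5 were not. The sample in Cy5 had more probes above background on each array, from 92.6% to 97.4%, against 65.5% to 85.7% for the sample in Cy3. Of the 15 probes, 14 were above background in both samples of every array, and Aqp8 probe 2 in 3 of 4 samples of each diet. The number of arrays limits the precision.

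Mean log2 ratios between the diets were near 0 for most of these probes, but the estimates for Aqp1, Aqp6 probe 1 and Avpr1a were imprecise. None of the 14 probes without a saturated spot passed the threshold, an adjusted p of 0.05 in limma with Benjamini-Hochberg adjustment over all probes, and 2 of the 14 had an unadjusted p below 0.05. Over all probes 5.82% passed (3.48% higher and 2.35% lower) and 21.5% had an unadjusted p below 0.05, so the counts among these 14 probes were near the background. The 1 member probe that passed, Avpr2 probe 1, was saturated on 3 of 4 arrays and is described apart. The median log2 ratio of low over high diet was 0.01 over the 14 probes and 0.00 over all probes. Ratios are positive where the low-diet sample was higher. The SD given with a ratio is over the 4 pairs and also holds the dye effect, which the fit removes, and the interval is the 95% interval of the fit.

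**Figure D1:**
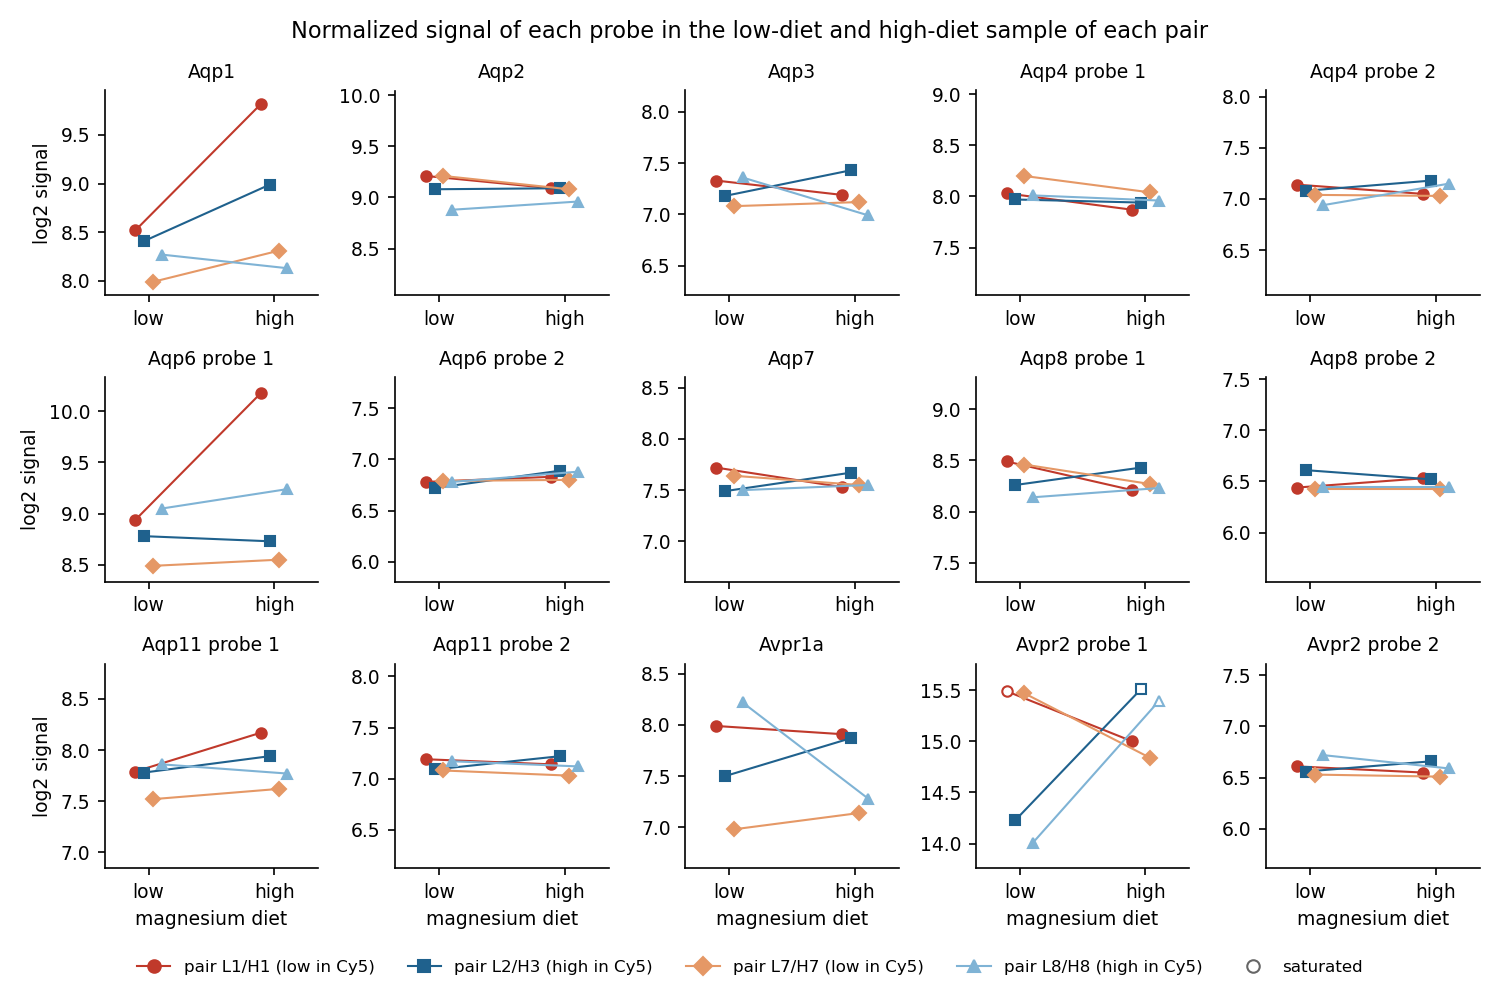
Normalized log2 signal (vertical axes, each spanning at least 2 units) of the 15 probes in the low-diet sample (left) and the high-diet sample (right) of each pair, joined by a line, with open symbols for saturated spots. Most lines are nearly flat, Aqp1 and Aqp6 probe 1 are highest in the high-diet sample of L1/H1, and the lines of Avpr2 probe 1 cross by dye.

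Aqp2 is the channel that vasopressin controls in principal cells, and its probe gave clear signal. Its normalized log2 signal was 9.21 in L1, 9.08 in L2, 9.21 in L7 and 8.88 in L8, against 9.09 in H1, 9.09 in H3, 9.08 in H7 and 8.96 in H8. The diets overlapped, and the sample with the lowest signal of each diet came from pair L8/H8. The log2 ratio was 0.04 ± 0.10 (SD, n = 4; interval -0.04 to 0.11; adjusted p = 0.557, limma), with 2 pairs above 0 and 2 below. The ratios above 0 were those of the pairs with the low-diet sample in Cy5, which averaged 0.12, while the other 2 pairs averaged -0.05. By the distance over the 4 ratios, the genes with ratios closest to those of Aqp2 among 16048 brightest probes above background on all arrays were C2cd4c (0.0291), Sstr5 (0.0316) and Reep6 (0.0363). The Aqp2 ratios were near 0 and followed the dye, so these distances do not show a shared diet response.

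Aqp3 encodes the basolateral channel of principal cells, which also passes glycerol. It had log2 signals of 7.33, 7.18, 7.08 and 7.36 in L1, L2, L7 and L8, against 7.19, 7.43, 7.12 and 6.99 in H1, H3, H7 and H8. No diet was consistently higher, and the largest gap, a log2 ratio of 0.37 on L8/H8, stood against one of -0.25 on L2/H3. The mean was 0.06 ± 0.26 (SD, n = 4; interval -0.23 to 0.34; adjusted p = 0.838, limma).

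Aqp4 encodes the other basolateral channel, found in principal cells and, in mice, also in proximal straight tubules. Probe 1 had log2 ratios of 0.16 on L1/H1, 0.03 on L2/H3, 0.17 on L7/H7 and 0.05 on L8/H8. This was 1 of 2 member probes with the same sign in all 4 pairs (13.3% of 15, against 24.6% of all probes), and its mean of 0.10 ± 0.07 (SD, n = 4; interval 0.03 to 0.17) had an unadjusted p of 0.0138 and did not pass over all probes (adjusted p = 0.113, limma). Probe 2 did not share that sign, at -0.05 ± 0.13 (adjusted p = 0.475, limma), with 2 pairs on each side of 0.

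**Figure D2:**
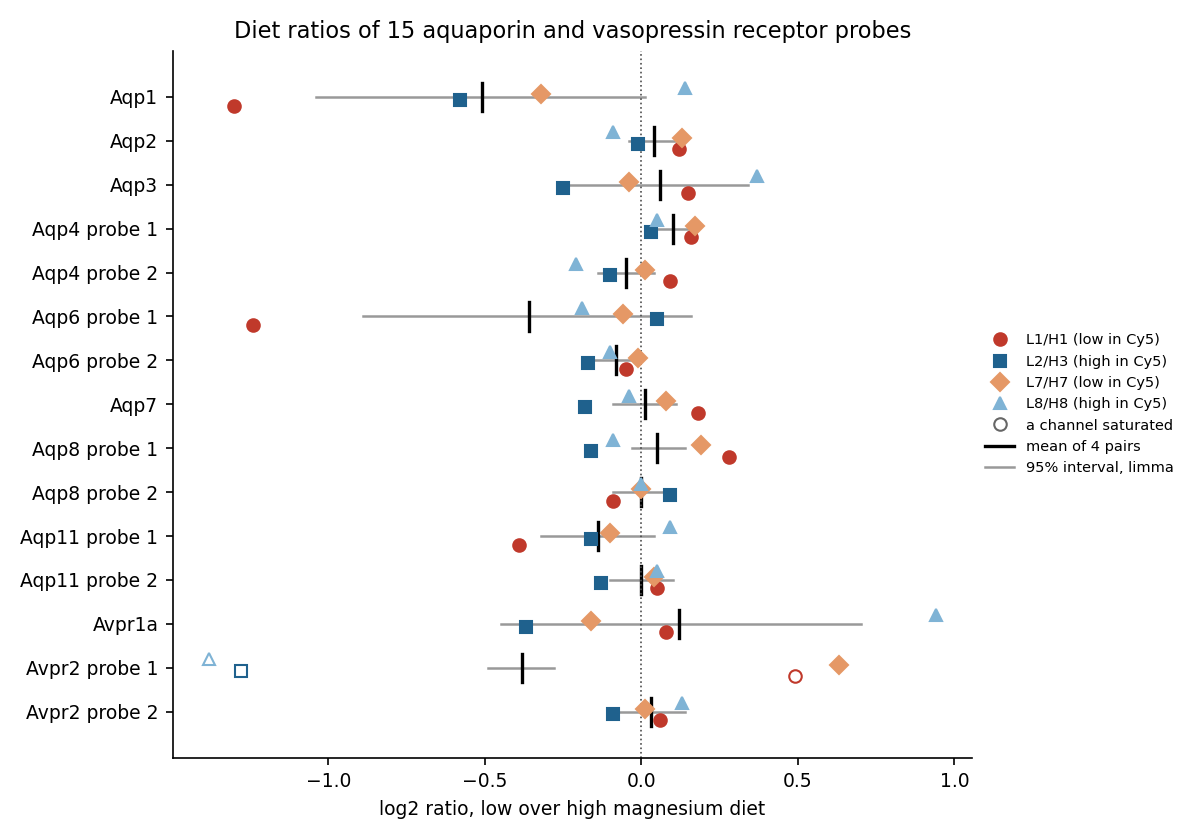
Log2 ratio of low over high diet (horizontal axis) for each of the 15 probes, with 1 symbol per pair, the mean as a black bar and the 95% interval of the limma fit as a grey line; open symbols mark pairs with a saturated channel. The means of the other 14 probes lie between -0.51 and 0.12, and Avpr2 probe 1 splits into 2 pairs above 0 and 2 pairs below -1.

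Aqp1 had the largest mean difference among the probes without saturated spots, and its high-diet samples spread more widely than its low-diet samples. Its log2 signal was 8.52 in L1, 8.41 in L2, 7.99 in L7 and 8.27 in L8, against 9.82 in H1, 8.99 in H3, 8.31 in H7 and 8.13 in H8. The low-diet samples lay within a narrow range, while H1 stood highest of all and H7 and H8 fell inside the low-diet range. The log2 ratios were -1.30 on L1/H1, -0.58 on L2/H3, -0.32 on L7/H7 and 0.14 on L8/H8. Their mean was -0.51 ± 0.60 (SD, n = 4; interval -1.04 to 0.01; adjusted p = 0.243, limma), and it ran from -0.76 without L7/H7 to -0.27 without L1/H1.

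The median log2 ratio of the proximal tubule markers, like the ratio of Aqp1, was lowest on L1/H1 and next lowest on L2/H3, though single markers differed in that order. It was -1.07 on L1/H1, -0.80 on L2/H3, -0.12 on L7/H7 and -0.26 on L8/H8. Of the 10 markers, Slc5a2, a glucose transporter, and Kap, the kidney androgen-regulated protein, were lower on the low diet, at -0.88 ± 0.37 (adjusted p = 0.0480, limma) and -1.22 ± 0.73 (adjusted p = 0.0183), and 0 were higher. Their summed normalized signal ran from 2497 to 3020 in the low-diet samples, against 3093 to 6819 in the high-diet samples, and 9 of 10 were above background in every sample. In these bulk samples fewer proximal cells and less RNA per proximal cell cannot be told apart, and the part of these cells in the Aqp1 ratio was not tested. Aqp1 is also made by red blood cells and by the endothelium of the vasa recta. Both measured red cell markers (Hbb-b1 and Alas2) were below background in at least 1 sample, with log2 ratios of 0.02 and -0.03. None of the 7 endothelial markers passed, with a median of -0.07. By pair their median was -0.15 on L1/H1, -0.17 on L2/H3, 0.00 on L7/H7 and 0.07 on L8/H8. The part of red cells and endothelium in the Aqp1 ratio was not tested either.

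The other channels known from the proximal tubule did not show differences of that size. Aqp7, an aquaglyceroporin of the brush border, had log2 ratios of 0.18, -0.18, 0.08 and -0.04 on L1/H1, L2/H3, L7/H7 and L8/H8, with a mean of 0.01 ± 0.16 (SD, n = 4; interval -0.09 to 0.11; adjusted p = 0.924, limma). The 2 positive ratios again belonged to the pairs with the low-diet sample in Cy5. Aqp11, which encodes a channel of the endoplasmic reticulum whose loss gives mice cystic kidneys, had ratios of -0.39, -0.16, -0.10 and 0.09 by probe 1, in the same order of pairs as Aqp1. Its mean was -0.14 ± 0.19 (interval -0.32 to 0.04; adjusted p = 0.332, limma), and probe 2 gave 0.00 ± 0.09.

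Aqp8 encodes a channel that has been placed in intracellular compartments and mitochondria of kidney epithelium. By probe 1 its log2 signals were 8.49, 8.26, 8.46 and 8.14 in L1, L2, L7 and L8, against 8.21, 8.43, 8.27 and 8.23 in H1, H3, H7 and H8. On each array the sample in Cy5 was the higher, whichever diet it came from, with ratios of 0.28 and 0.19 on L1/H1 and L7/H7 and of -0.16 and -0.09 on L2/H3 and L8/H8. The diet ratio averaged 0.05 ± 0.21 (SD, n = 4; adjusted p = 0.446, limma), and the dye effect of 0.18, Cy5 over Cy3, had an unadjusted p of 0.00316 (adjusted p = 0.143). The dimmer probe 2 lay at percentile 18.6 of brightness and averaged 0.00 ± 0.07.

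**Figure D3:**
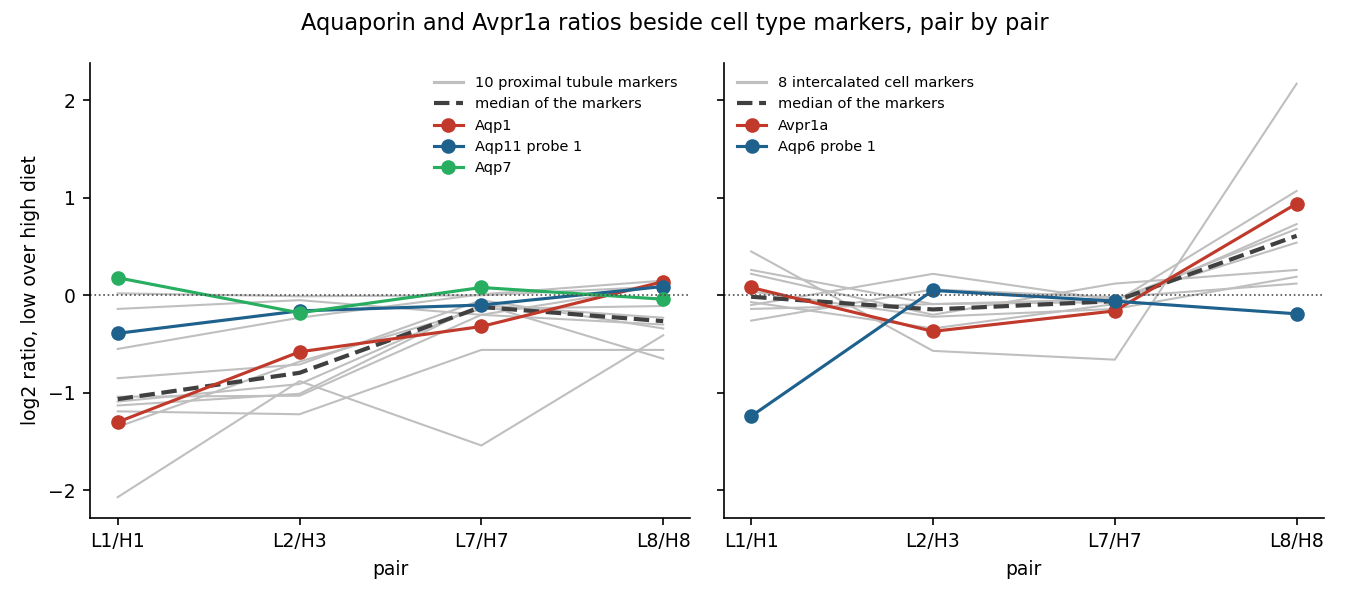
Log2 ratio of low over high diet (vertical axis) by pair, for Aqp1, Aqp11 probe 1 and Aqp7 beside 10 proximal tubule markers (left) and for Avpr1a and Aqp6 probe 1 beside 8 intercalated cell markers (right); grey lines are single markers and the dashed line their median. Aqp1 and the proximal median are both lowest on L1/H1, and Avpr1a and the intercalated median are both highest on L8/H8.

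Aqp6 encodes an anion-permeable channel in vesicles of acid-secreting intercalated cells. Probe 1 had log2 signals of 8.94, 8.78, 8.49 and 9.05 in L1, L2, L7 and L8, against 10.18, 8.73, 8.55 and 9.24 in H1, H3, H7 and H8. H1 stood above the 7 other samples, and the diets overlapped otherwise. The ratios were -1.24 on L1/H1 and 0.05, -0.06 and -0.19 on L2/H3, L7/H7 and L8/H8, with a mean of -0.36 ± 0.60 (SD, n = 4; interval -0.89 to 0.16; adjusted p = 0.403, limma). The mean was -0.06 without L1/H1 and -0.66 without L7/H7 (adjusted p = 0.860 and 0.0503, limma). The authors' deposited ratios of Aqp6 probe 1, turned to low over high diet, were -0.94, -0.23, 0.14 and -0.52 on L1/H1, L2/H3, L7/H7 and L8/H8, so there 3 of 4 pairs lay below 0. The 8 intercalated cell markers had a median of -0.01 on L1/H1, with single markers from -0.26 (Slc4a1) to 0.45 (Slc26a4). The part of intercalated cells in the Aqp6 ratios was not tested. The dimmer probe 2, at percentile 41.3 of brightness, had ratios between -0.17 and -0.01, below 0 in 4 of 4 pairs. Its mean of -0.08 ± 0.07 did not pass (unadjusted p = 0.0450; adjusted p = 0.219, limma). Its low-diet signals ran from 6.72 to 6.79 and its high-diet signals from 6.80 to 6.89. How many of all probes have diets without overlap was not counted, so no weight is put on that gap.

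Avpr1a encodes the V1a receptor, which signals through Gq and calcium and is found in intercalated cells and in vascular smooth muscle. Its log2 signal was 7.99 in L1, 7.50 in L2, 6.98 in L7 and 8.22 in L8, against 7.91 in H1, 7.87 in H3, 7.14 in H7 and 7.28 in H8. The pairs disagreed in direction, with ratios of 0.08, -0.37, -0.16 and 0.94 on L1/H1, L2/H3, L7/H7 and L8/H8. The mean was 0.12 ± 0.57 (SD, n = 4; interval -0.45 to 0.70; adjusted p = 0.827, limma), and it was -0.21 without L8/H8 and 0.45 without L2/H3.

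Intercalated cell markers also had their highest median ratio on L8/H8. Their median log2 ratio was -0.01, -0.15, -0.06 and 0.61 on L1/H1, L2/H3, L7/H7 and L8/H8, and Slc26a4, the chloride-bicarbonate exchanger pendrin, had 2.17 on L8/H8. Their summed signal ran from 2305 to 4209 in the low-diet samples, against 2071 to 3026 in the high-diet samples, with 8 of 8 above background in every sample and 0 past the threshold. The highest median on L8/H8 was not particular to intercalated cells. Thick ascending limb markers also had their highest median there, at 0.24. Principal cell markers had a median of 0.01 on L8/H8, with Scnn1g at 1.04. The part of intercalated cells in the Avpr1a ratios was not tested. Smooth muscle markers had a median of 0.01 on L8/H8, with single markers from -0.06 (Tagln) to 0.22 (Myh11). The part of smooth muscle in the Avpr1a ratios was not tested either.

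Avpr2 encodes the V2 receptor, the start of the antidiuretic pathway. Its probe 1 lay at percentile 99.9 of probe brightness, and its probe 2 at 28.2. No probe sequences were at hand, so the 2 probes could not be placed on the transcript. That probe 1 reads Avpr2 rests on the platform annotation alone. The median spot brightness of probe 1 was 65308 in L1, 11142 in L2, 61540.5 in L7 and 13631.5 in L8, against 22854 in H1, 65308 in H3, 26640 in H7 and 65119 in H8. The sample in Cy5 was at or near the scanner's ceiling on every array, whichever diet it came from. With the saturation mark at a median of 65000, the spot was saturated in L1, H3 and H8.

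**Figure D4:**
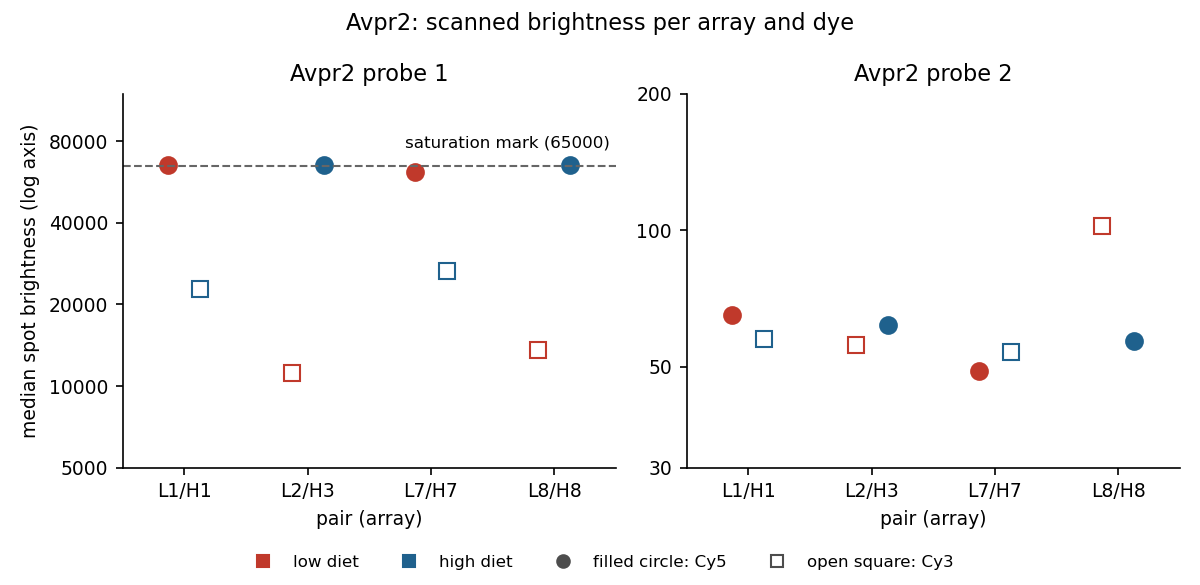
Median spot brightness (vertical log axes, scanner units, not background subtracted) of Avpr2 probe 1 (left) and probe 2 (right) on each array, with the low-diet sample left of the high-diet sample, filled circles for Cy5 and open squares for Cy3. In probe 1 every Cy5 value lies between 61540.5 and 65308, close to the dashed saturation mark of 65000, and the Cy3 values lie between 11142 and 26640.

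The log2 ratios of Avpr2 probe 1 followed the dye. They were 0.49 on L1/H1 and 0.63 on L7/H7, with the low-diet sample in Cy5, against -1.28 on L2/H3 and -1.38 on L8/H8, with the high-diet sample in Cy5. The dye effect, Cy5 over Cy3, was 0.94 (unadjusted p = 4.41e-06; adjusted p = 0.0579, limma). After that effect the fit gave a diet ratio of -0.38 (interval -0.49 to -0.28; adjusted p = 0.0200, limma), while the SD of the 4 ratios was 1.09. The interval does not cover saturation: a channel at the ceiling is cut off, so the ratio on L1/H1 is a lower limit and those on L2/H3 and L8/H8 are upper limits. The array without a saturated spot, L7/H7, gave 0.63, opposite in sign to the fitted mean, but a single pair still holds the dye effect and its Cy5 spot was close to the ceiling.

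The Cy3 channel of this probe was not saturated on any array, so it was also set side by side across arrays, which gives up the pairing. Quantile-normalized log2 Cy3 signals were 13.81 in L2 and 13.53 in L8, against 14.50 in H1 and 14.40 in H7. The low-diet samples were below the high-diet samples by 0.78 on the log2 scale, with adjusted p = 0.0905 (limma, 2 samples per diet). In that limma comparison 0 of 39429 probes passed, and 6220 had an unadjusted p below 0.05. Probe 2, at percentile 28.2 of brightness, had log2 signals of 6.53 to 6.72 in the low-diet samples, against 6.51 to 6.66 in the high-diet samples, and a ratio of 0.03 ± 0.09 (interval -0.09 to 0.14; adjusted p = 0.817, limma).

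The authors' deposited log2 ratios for Avpr2 probe 1, turned to low over high diet, were -0.45, -0.35, -0.19 and -0.41 on L1/H1, L2/H3, L7/H7 and L8/H8. In these normalized values the sign no longer followed the dye, and all 4 pairs lay below 0. In the authors' deposited table the p-value of Avpr2 probe 1 was 0.838, with a log2 value, as high over low diet, of 0.35, and the p-value of each of the other 14 probes was 1. The authors' deposited table gave Aqp1 a value, as high over low diet on the log2 scale, of 0.58, Aqp6 probe 1 of 0.39 and Aqp2 of -0.02. The authors' deposited ratios of Aqp1, turned to low over high diet, were -0.98, -0.92, -0.21 and -0.21 in the same order of pairs, below 0 in all 4.

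The pathway around the receptors and channels was read from 54 measured genes, each by its brightest probe. On the low diet 6 of them rose and 2 fell, which is 14.8% against a call rate of 7.82% for the brightest probes of all genes (4.88% higher and 2.95% lower). These 2 rates are not at like brightness. The 8 genes that passed lay at percentile 86.0 of brightness or above. With the dimmest 50% of probes left out, 2604 of 19714 probes passed. Whether the pathway differed from genes of like brightness was not tested. With median centring of each array in place of loess, 3 rose and 3 fell. Among 18 genes between the V2 receptor and its cyclic AMP targets, Rapgef3, the cyclic AMP sensor Epac1, rose by 0.50 ± 0.35 (adjusted p = 0.0292, limma), Prkacb, a catalytic subunit of protein kinase A, by 0.40 ± 0.15 (adjusted p = 0.0418), and Akap11, an anchor of that kinase, by 0.24 ± 0.08 (adjusted p = 0.0411; SD, n = 4). Adcy6, the adenylate cyclase that the V2 receptor uses in the collecting duct, was lower, at -0.36 ± 0.29 (adjusted p = 0.0332, limma). Its ratios were -0.47 and -0.72 on L1/H1 and L7/H7 and -0.17 and -0.08 on L2/H3 and L8/H8. The other 14 genes did not pass, among them the G protein gene Gnas at 0.00 ± 0.06. A dimmer probe of Prkacb also rose, by 0.29 ± 0.10 (adjusted p = 0.0258), while dimmer Akap11 probes, at 0.14 ± 0.10 and -0.03 ± 0.04, did not pass.

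**Figure D5:**
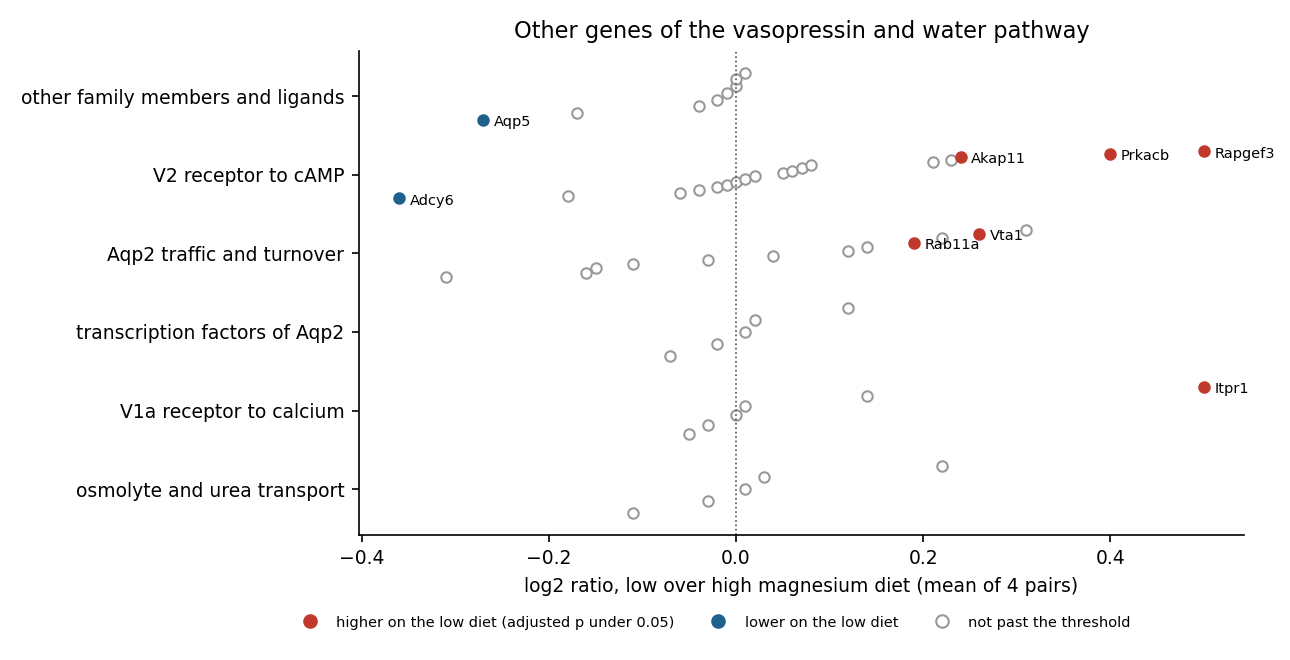
Mean log2 ratio of low over high diet (horizontal axis) of 54 genes around vasopressin signalling and water transport, 1 point per gene, grouped by role; filled points passed the limma threshold and carry their name. The 8 filled points lie between -0.36 and 0.50.

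Among 12 genes of aquaporin 2 traffic and turnover, Rab11a, a GTPase of recycling endosomes, rose by 0.19 ± 0.03 (adjusted p = 0.0367, limma) and Vta1, which takes part in sorting to the lysosome, by 0.26 ± 0.20 (adjusted p = 0.0403; SD, n = 4), with dimmer Vta1 probes at 0.01 and -0.10. Downstream of the V1a receptor, Itpr1, the calcium release channel opened by inositol trisphosphate, rose by 0.50 ± 0.25 (adjusted p = 0.0111, limma), and the 5 other measured genes of that list did not pass. Aqp5, a neighbour of both Aqp2 and Aqp6 in the gene order of the mouse reference, was lower by its brightest probe, at -0.27 ± 0.08 with 4 of 4 pairs below 0 (adjusted p = 0.0351, limma). Its dimmer probes, at 0.03 and 0.05, did not pass. The transcription factors known to act on the Aqp2 gene (5 measured) and the genes of osmolyte and urea transport (5 measured) held 0 calls in limma, with 1 unadjusted p below 0.05 in each list. Of the 8 pathway calls, 1 at most remained when a pair was left out, namely Itpr1 without L2/H3 or without L7/H7.

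Among the 8 principal cell markers, which include none of the members, Tfcp2l1, a transcription factor of the distal nephron, rose by 0.53 ± 0.23 (adjusted p = 0.0340, limma), by its brighter probe (log2 ratio 0.05 ± 0.17 by the dimmer), and the other 7 genes did not pass. The median log2 ratio of the 8 was -0.01, beside 0.04 for Aqp2, 0.06 for Aqp3 and 0.10 for Aqp4 probe 1. Elf5 and Gata3 are counted both there and among the transcription factors, and Slc14a1 and Slc14a2 both among the urea transporters and as endothelial and thin limb markers. Beside these ratios, the DCT markers Pvalb (2.27 ± 0.40), Trpm6, Calb1, Egf and Wnk1 rose, as did Umod and Kcnj1 of the thick ascending limb, while Ptger3 of that segment fell (SD, n = 4). The DCT markers Slc12a3 (0.13 ± 0.27), Emx1 (0.05 ± 0.20) and Sall3 (-0.06 ± 0.19) did not pass. Neither did Slc12a1, Cldn16 and Ppp1r1b of the thick ascending limb. Egf was saturated on 1 array, and dimmer Wnk1 probes, at 0.06 and 0.11, did not pass. The 4 adipocyte, 4 smooth muscle and 2 measured thin limb markers held 0 calls in limma, with 2, 0 and 1 unadjusted p below 0.05.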

How the data were processed

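Each array held double-amplified cRNA of both diets, 1 sample in each colour, per the labels. The deposited scans hold spot intensity per channel, not background subtracted, per the file headers. The authors' deposited log2 ratios are normalized by a method not given in the sources used here. Their direction, and that of the deposited maanova table (log2 ratio and p-value), was found by comparison with the scans. Genes were named from the platform annotation: 32431 probes had a symbol and 6998 had none. No genome build is given, so no coordinates are printed.

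Mean intensity was corrected with normexp (offset 50) and normalized by loess within each array, with 5791 control spots at weight 0, in limma 3.58.1 (R 4.3.3). The fit held a dye term and the diet, with 2 residual degrees of freedom and 2.68 from the prior, and p-values were adjusted over 39429 probes. An exact sign-flip test over 4 pairs cannot go below p = 0.125, so none was used for single probes. Signals per sample were taken after loess and Aquantile normalization. A spot was above background where its signal minus local background passed percentile 99 of the 604 spots of 1 dim control. Simulated data had 200 of 39429 probes changed and independent normal noise at each probe's residual SD. There the fit recovered 56.0% of probes changed by 0.5 and 87.5% of those changed by 1 on the log2 scale. In the real data 2296 probes passed, so these rates hold for the simulated setting and are not the power of this study. Each gene of the lists was read by its brightest probe. Every member is named with all its probes, every list gene past the threshold is named, and the 3 genes nearest to Aqp2 are those of smallest Euclidean distance over the 4 ratios. The members, the rule and the lists were chosen with earlier results of these data known. The alternatives were background correction, pixel summary, normalization, dye term, filter on dim probes, saturated spots, the authors' ratios, the probe rule and leaving out each pair; the Cy3 channel alone was added after seeing the data.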

Additional observations from a re-analysis of the deposited data

Results flagged for a closer look

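Of 64 groups of 4 values tested for a sample far from the others, 5 stood out by Dixon's criterion, and chance gives about 1 in 20. The Aqp2 log2 signal of the high-diet sample on L8/H8 was 8.96, below the 9.08 to 9.09 of the other high-diet samples. The Aqp7 log2 signal of the high-diet sample on L2/H3 was 7.67, above 7.53 to 7.55 in the others. On the same array the low-diet sample had an Aqp8 probe 2 log2 signal of 6.61, against 6.43 to 6.45 in the other low-diet samples, and the Aqp11 probe 2 log2 ratio was -0.13, against 0.04 to 0.05 in the other pairs. The principal cell marker Tfcp2l1 had a log2 ratio of 0.19 on L8/H8, below the 0.61 to 0.70 of the other pairs.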

How the results depend on the processing

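Of 191 refitted ratios of member probes, 168 kept their direction and their side of the threshold, 16 reversed and 7 lost a call, and the 14 probes without a call gained none under any alternative run. The Avpr2 probe 1 call was lost with plain background subtraction (-0.33), without the dye term (-0.38), in the Cy3 channel alone (-0.78) and without any 1 pair (-0.42 to -0.35), and its ratio was 0.56 over the pairs with the low-diet sample in Cy5. The means of the 2 dye orientations, which have no test, had opposite signs for 8 of 15 probes. Its adjusted p ran from 0.0116 to 0.766 over the alternatives (limma), and with saturated spots missing no fit was possible. Reversed ratios near 0 were Avpr1a at -0.03 with plain subtraction, Aqp8 probe 2 at -0.02 without background correction, -0.01 with median pixels and -0.02 in the authors' ratios, Aqp11 probe 2 at -0.01 with median centring, and, in Cy3 alone, Aqp2 at -0.11, Aqp7 at -0.02 and Aqp8 probe 1 at -0.04. Leaving out a pair gave -0.76 to -0.27 for Aqp1, -0.66 to -0.06 for Aqp6 probe 1, -0.21 to -0.07 for Aqp11 probe 1, -0.10 to 0.21 for Aqp3, -0.02 to 0.04 for Aqp7, -0.02 to 0.03 for Aqp8 probe 2, -0.04 to 0.05 for Aqp11 probe 2, -0.21 to 0.45 for Avpr1a and -0.03 to 0.08 for Avpr2 probe 2. Member calls were 0 with plain subtraction, without the dye term, with saturated spots missing, in Cy3 alone and without any pair (0 to 0). Pathway calls were 0 with plain subtraction, 2 without the dye term, 0 in Cy3 alone and 0 to 1 without a pair, and marker calls were 6, 5, 0 and 3 to 9. Over all probes 279 passed with plain subtraction (73.1% of them higher, against 59.7% in the reported fit), 824 without the dye term, 0 in Cy3 alone and 83 to 863 without a pair, against 2296. The cause of these changes was not tested. Apart from the Cy3 channel alone, every fit was paired, because each array is 1 littermate pair and the ratio within it is the value tested.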
